A study of Mus musculus with 2 samples.

Results

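The genes described here carry the signals of insulin, IGF-1 and leptin and the nutrient and energy sensors mTOR and AMPK, as measured in the hypothalamus of mice with and without Crtc1. Members were the 44 genes of this signalling network on a fixed list, found on the Affymetrix Mouse Genome 430 2.0 array through probe sets that the platform annotation pairs with that gene alone. Of the 44 genes, 43 had such a probe set, with 126 probe sets among 34945 paired with a single gene on the array. A total of 89 probe sets for 40 genes passed a filter on dim signals, which kept 11312 genes in all. A probe set is a group of short probes read together for a transcript, or for several similar ones, and the filter asked for a mean signal over both arrays of at least 52.3.

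Crtc1 helps CREB, a cAMP-responsive transcription factor, to switch on genes, and the series title ties it to energy balance and fertility. RNA came from the hypothalami of 12 week old males that went without food for 18 h and were then fed again for 6 h. The knockout group, labelled Crtc1 KO, and the wild-type group, labelled Crtc1 WT, were each 1 array of RNA mixed in equal amounts from 3 mice. The sources used here name neither the strain nor the way the allele was altered. With 1 array a group there is no replicate, so the values below carry no test and no p-value, and the spread between mice is unknown.

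Insulin and IGF-1 bind receptor tyrosine kinases that act through the IRS adaptors, PI3K and AKT. AKT restrains the FoxO transcription factors and GSK3 and, through the TSC complex and Rheb, releases mTOR complex 1, which promotes protein synthesis. Leptin signals through its receptor, JAK2 and STAT3, with SOCS3 and the phosphatase PTP1B as brakes. AMPK is switched on by low energy through LKB1 and opposes mTOR complex 1. In the hypothalamus these pathways report on fed and fasted states to the neurons that set food intake.

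As a group the pathway genes differed between the pools about as little as measured genes in general. None of the 40 measured genes differed 1.5-fold or more, a size reached by 3.5% of all measured genes. At least 1.2-fold apart were 7 (17.5%), against 21.9% of all measured genes. Of these, 4 were higher in the knockout pool (Ddit4l, Tsc1, Prkaa1 and Stat5b), where 11.9% of all genes were, and 3 were lower (Prkag1, Sesn1 and Tsc2), where 9.97% were. This split depended on the scaling, with 1 higher and 4 lower after median centring and 2 higher and 3 lower after loess. Of all genes, 23.3% and 21.7% were at least 1.2-fold apart under these scalings. The median log2 difference, knockout minus wild type, was -0.01 over the 40 genes and 0.00 over all measured genes. The SD of these differences was 0.19 and 0.25. In RNA from whole tissue, fewer cells of a type and less RNA per cell cannot be told apart.

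**Figure D1:**
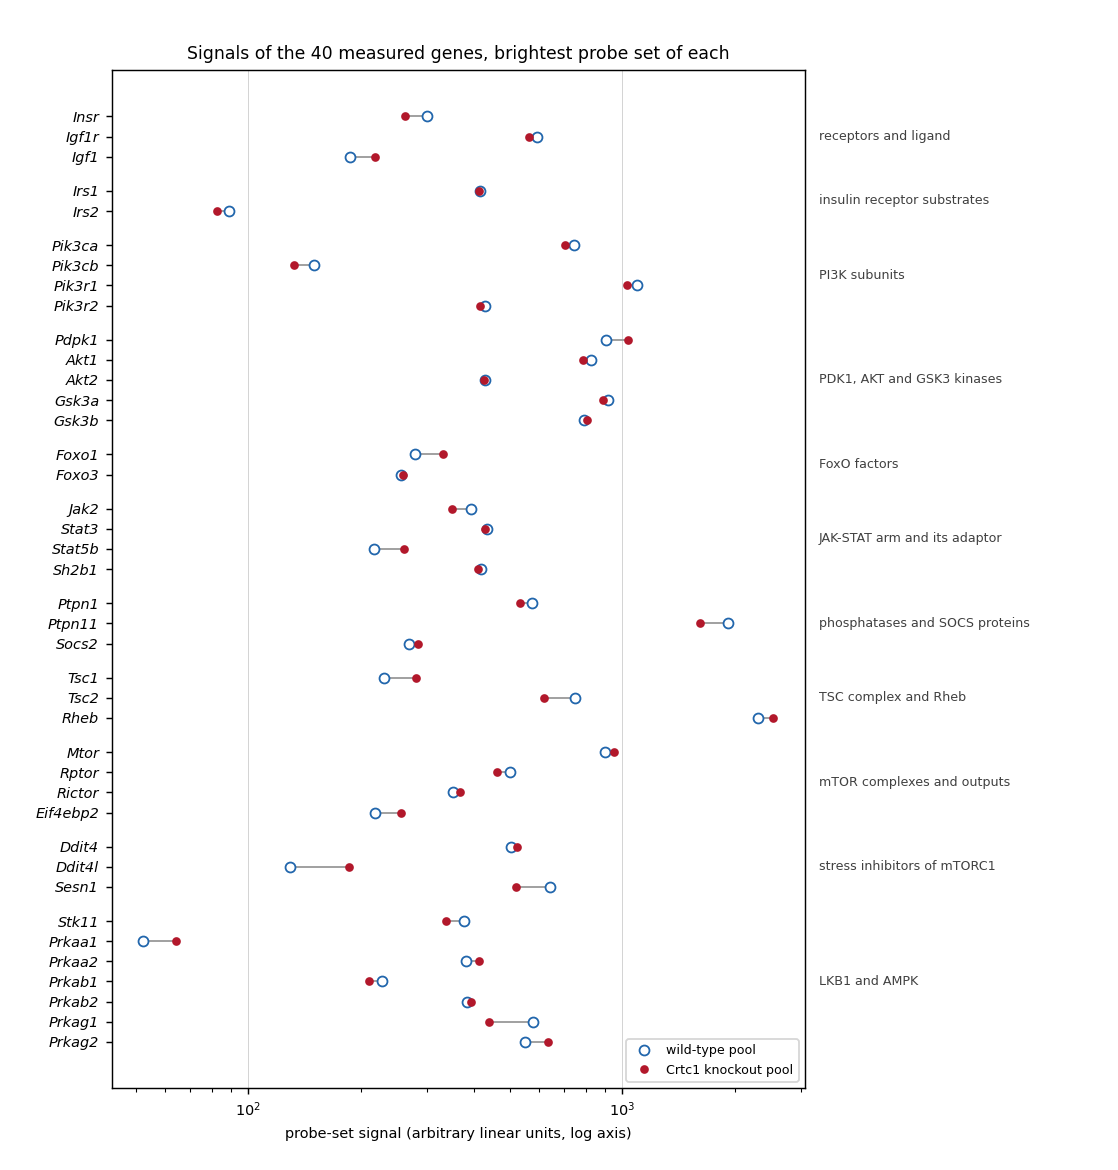
Signal of the brightest measured probe set of each of the 40 genes (log axis, arbitrary linear units) in the wild-type pool (open circles) and the Crtc1 knockout pool (filled circles), 1 pooled array each, ordered by role in the pathway. Most pairs of circles touch or lie close together, and the widest gap is that of Ddit4l, at 186 in knockout and 130 in wild type.

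The only error that can be taken from these arrays is the disagreement between probe sets of a single gene, called the array error here. It was 0.32 on the log2 scale for mean log2 signals below 7 and shrank to 0.16 at 10 and above, and it holds no spread between mice. By this measure 31 of the 40 genes (77.5%) differed by no more than their array error, against 74.8% of all measured genes. Within 0.1 of 0 on the log2 scale lay 17 of the 40 genes (42.5%), against 40.5% of all genes.

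Because Crtc1 acts through CREB, which binds the cAMP response element (CRE), RefSeq promoter windows of assembly GRCm38.p6 were read for the letters TGACGTCA, the full CRE, and for TGACG, its half-site, on both strands. Each window ran from 250 bases before to 50 bases after an annotated start, and 53 windows covered 41 of the 44 genes. Insr, Socs2 and Eif4ebp1 had no entry. The full CRE was in 1.79% of all 32851 windows and in 1 of 53 windows (1.89%) of the pathway genes, that of Ptpn11, which are similar shares. The half-site, which every full CRE also contains, was in 20.8% of all windows and in 19 of 53 (35.8%) here, spread over 18 genes. The set of all windows was not matched to these in base content or expression of the genes, so the shares are not like for like. The stretches below are those of Ptpn11 and of the 3 genes at least 1.2-fold apart that held a half-site, 5′ to 3′ on the strand of the gene with the match in capitals, and for contrast the 100 bases before the start of Ddit4l, whose window held no match.
Ptpn11, chr5:121191437-121191484, minus strand: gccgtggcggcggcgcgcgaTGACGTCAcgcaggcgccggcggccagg
Tsc1, chr2:28641074-28641118, plus strand: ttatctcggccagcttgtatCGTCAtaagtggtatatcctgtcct
Sesn1, chr10:41887358-41887402, plus strand: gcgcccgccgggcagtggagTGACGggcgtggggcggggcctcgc
Prkag1, chr15:98831509-98831550, minus strand: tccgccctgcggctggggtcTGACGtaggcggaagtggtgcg
Ddit4l, chr3:137623572-137623671, plus strand: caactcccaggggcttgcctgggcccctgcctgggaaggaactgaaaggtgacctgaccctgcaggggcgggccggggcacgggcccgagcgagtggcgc
The match in Ptpn11 began 67 bases before the start, that in Tsc1 139, that in Sesn1 61 and that in Prkag1 22. Ptpn11 read lower and Tsc1 higher in the knockout pool by all of their probe sets, while those of Sesn1 and of Prkag1 differed in sign. The windows of Stat5b, Tsc2 and Prkaa1, the others at least 1.2-fold apart, held no match either. A match of letters is a description of the sequence, not a bound site.

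Among hormone receptors and ligand, the insulin receptor gene Insr read 262 in knockout and 301 in wild type. Its difference of -0.20 on the log2 scale was within the array error of 0.23, and its other probe sets were too dim to be measured. Igf1r, the IGF-1 receptor gene, read 564 and 592, a difference of -0.07, with another probe set at 163 and 153 and the third at 115 and 133. So the receptor of IGF-1 showed no common direction over its 3 probe sets. Igf1, which encodes the ligand, was higher in the knockout pool by all 3 of its measured probe sets. The brightest read 219 in knockout and 187 in wild type, the next 174 and 128, and the third 62.0 and 46.7. The third passed the filter only through its knockout signal, since 46.7 is below 52.3. These are differences of 0.23, 0.44 and 0.41 on the log2 scale, with a mean of 0.36. The array errors are 0.26, 0.26 and 0.32, so the brightest probe set lay within its own. A probe set of Igf1 too dim to be measured went the other way, at 49.0 and 54.0.

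Lepr, the leptin receptor gene, was too dim to be measured. The brightest of its 4 probe sets read 37.8 in knockout and 35.5 in wild type. Both signals are above the floors of 20.5 and 20.2 placed under each array but below the filter of 52.3, so no difference is given. The others read 12.3 to 20.8, near or below these floors, so they carry a bound and not a level.

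The adaptors and PI3K subunits all read slightly lower in the knockout pool by their brightest probe sets, and every difference was within its array error. Irs1, whose product couples the insulin and IGF-1 receptors to PI3K, read 414 and 417 in knockout and wild type. Irs2, its paralog and a known CREB target in other tissues, read 82.6 and 88.8, a difference of -0.10. For the catalytic subunit genes, Pik3ca read 704 and 744, and Pik3cb read 132 and 150. For the regulatory subunit genes, Pik3r1 read 1027 and 1095, and Pik3r2 read 417 and 430. The differences of these 4 subunit genes ran from -0.18 to -0.04. The dimmer measured probe sets had both signs. Those of Pik3r1 differed by -0.37, 0.22 and 0.53, and those of Pik3ca by -0.07, -0.09 and 0.43.

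Downstream of PI3K, the kinase genes stayed close to equal. Pdpk1, which encodes the kinase PDK1 that activates AKT, read 1035 in knockout and 902 in wild type by its brighter probe set, and 193 and 235 by the other, so its direction was not settled. Akt1 read 786 and 825, with its second measured probe set at 523 and 594. Akt2, the AKT gene tied most closely to glucose uptake, read 428 and 430 by its brightest probe set, 128 and 159 by the next and 47.6 and 61.7 by the third. The AKT genes were thus lower by all of their measured probe sets, except that the brightest of Akt2 turned to 0.00 with a positive sign under quantile normalization, by -0.07 and -0.18 for Akt1 and by -0.01, -0.31 and -0.37 for Akt2. The GSK3 genes encode kinases that AKT inhibits. Gsk3a read 890 and 914, and Gsk3b read 804 and 790 by the brightest of 6 measured probe sets, which ranged from -0.50 to 0.30.

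The FoxO factors are held out of the nucleus by AKT. Foxo1 read 332 in knockout and 279 in wild type by its brightest probe set, a difference of 0.25 against an array error of 0.23. Its other measured probe sets read 280 against 304 and 249 against 233, and without probe sets that can match several transcripts Foxo1 was at -0.11, so it had no settled direction. Foxo3 read 259 and 255, and 246 and 244 by a second probe set, differences of 0.02 and 0.01.

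In the leptin arm, Jak2, the kinase gene of the leptin receptor, was lower in the knockout pool by both of its probe sets. They read 350 against 394 and 204 against 231, differences of -0.17 and -0.18 that lay within the array errors of 0.23 and 0.26. Stat3, whose product carries the leptin signal to the nucleus, read 430 and 436, with its second probe set at 353 and 390. Stat5b, a factor of the growth hormone and leptin receptors, read 261 in knockout and 216 in wild type, a difference of 0.27. Its dimmer probe set read 86.6 and 108, a difference of -0.32, and the mean of both was -0.02. Sh2b1, an adaptor that strengthens JAK2 signalling, read 411 and 418.

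Among the brakes on these receptors, Ptpn1, which encodes PTP1B, read 532 in knockout and 572 in wild type, and 351 and 332 by its other probe set, so the signs differed. Ptpn11, which encodes SHP2, a phosphatase that also passes growth factor signals on, was lower by every probe set. The bright one read 1613 and 1911, the next 54.6 and 59.7, and the third, below the filter, 44.3 and 52.3. The bright probe set differed by -0.24, which is more than its array error of 0.16. This is the gene with the full CRE shown above, and any link between that match and the signal was not tested. Socs2, a brake on growth hormone receptor signalling, read 284 and 269, and its 4 measured probe sets ran from -0.38 to 0.34. Socs3, the brake that leptin induces, was too dim to be measured. Its probe sets read 52.7, 44.4 and 18.3 in knockout RNA against 30.7, 20.4 and 26.9 in wild type, so those above the floor in the knockout pool were the higher ones there, at levels where no fold is given.

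**Figure D2:**
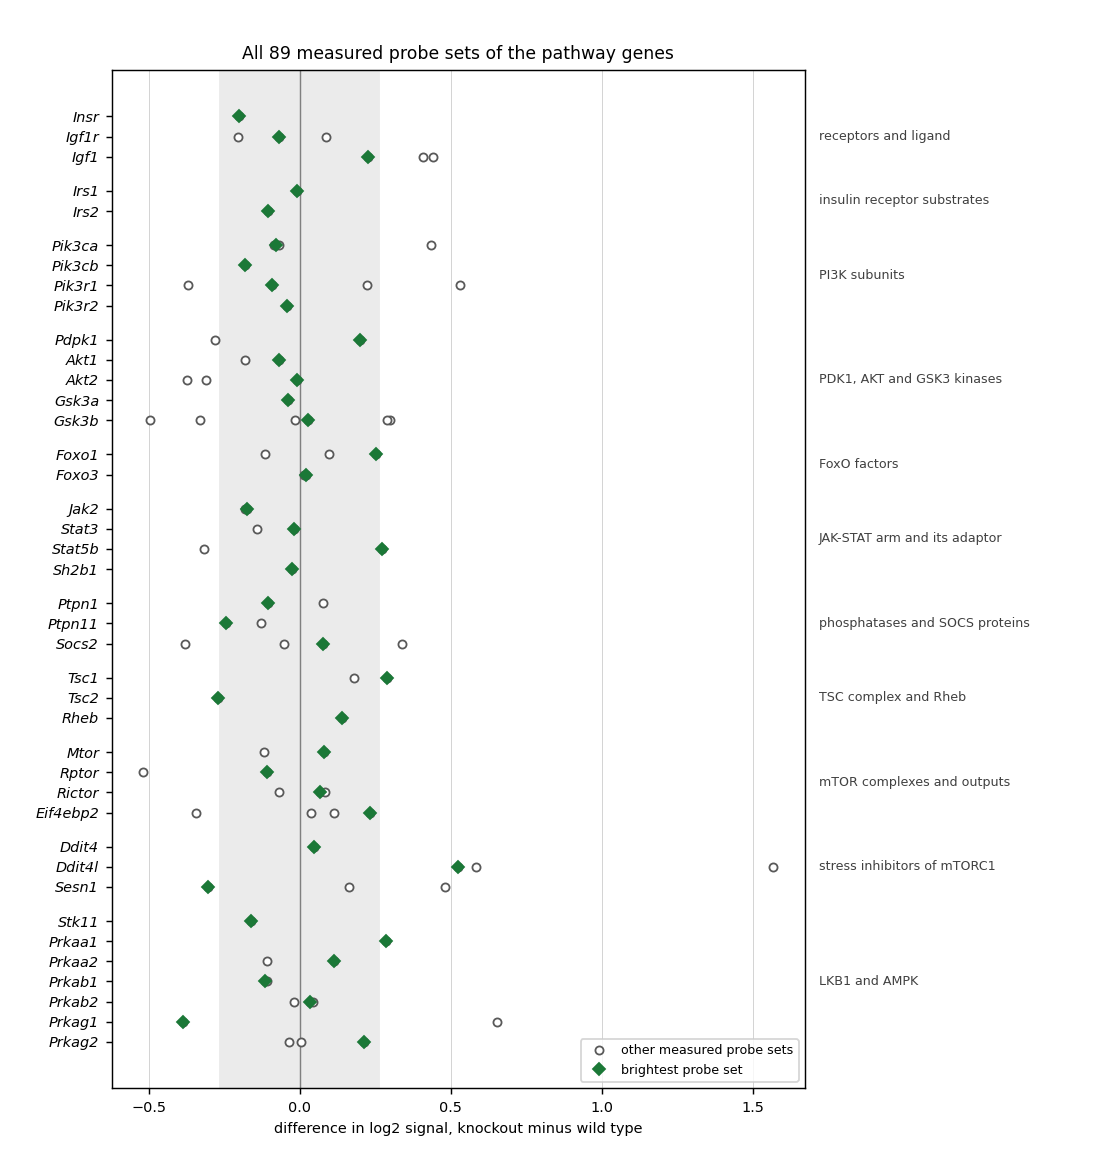
Difference in log2 signal, knockout minus wild type, for all 89 measured probe sets of the 40 genes, with the brightest probe set of each gene as a diamond and the others as open circles; the grey band spans differences under 1.2-fold. Most diamonds lie in the band, the probe sets of many genes fall on both sides of 0, and those of Ddit4l lie at 0.52, 0.58 and 1.57.

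The TSC genes differed in opposite directions. Tsc1, which encodes hamartin, read 281 in knockout and 230 in wild type, a difference of 0.29 against an array error of 0.26. Its second measured probe set was also higher, at 65.8 and 58.1, as was a probe set below the filter, at 43.3 and 33.8. Tsc2, which encodes tuberin, its partner in the complex, read 619 and 747 by its only probe set, a difference of -0.27 against an array error of 0.21. Rheb, the small GTPase gene that the complex restrains, read 2534 and 2301, a difference of 0.14 within the array error of 0.16.

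The genes of the mTOR complexes differed little by their brightest probe sets. Mtor, the kinase gene, read 950 and 899, and 64.5 and 70.1 by a dim probe set. Rptor, which encodes the raptor subunit of complex 1, read 463 and 500, a difference of -0.11. Its dim probe set read 50.9 and 72.9, a difference of -0.52, and passed the filter only through its wild-type signal. Rictor, which encodes the defining subunit of complex 2, read 369 and 352. Eif4ebp2, the main 4E-BP gene of the brain, whose product blocks cap-dependent translation until mTOR phosphorylates it, read 256 and 218, a difference of 0.23. Its other 3 measured probe sets ran from -0.35 to 0.11. Eif4ebp1 was too dim to be measured, at 57.0, 60.4 and 21.2 in knockout RNA against 45.0, 19.9 and 26.1 in wild type. Rps6kb1, which encodes the S6 kinase, had no probe set paired with it alone and is not analysed here.

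The clearest difference of the network was in Ddit4l, also known as REDD2, an inhibitor of mTOR complex 1. Its brightest probe set read 186 in knockout and 130 in wild type, a 1.44-fold higher signal and a log2 difference of 0.52 against an array error of 0.26. The next read 157 and 105, a difference of 0.58. The dimmest read 90.1 and 30.4, a difference of 1.57, and this was the highest of all 89 probe sets. Its mean log2 signal of 5.71 only just reached the filter at 5.708, and its wild-type signal alone was below 52.3. All 3 were higher in the knockout pool and each difference was beyond its array error. With probe sets averaged, Ddit4l differed by 0.89 and was the 1 gene of the network past 1.5-fold, where 3.13% of all genes were. This mean leans on the dimmest probe set, which passed the filter only through its knockout signal. Ddit4l stood at rank 333 from the highest of the 11312 genes by its brightest probe set.

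The paralog Ddit4, known as REDD1 and induced by stress and glucocorticoids, was close to equal, at 522 in knockout and 505 in wild type. Sesn1, a sestrin that links amino acid levels to mTOR complex 1, read 520 and 642 by its brightest probe set, a difference of -0.30 against an array error of 0.21. Its other measured probe sets went the other way, at 194 against 174 and 125 against 89.4, and the mean of the 3 was 0.11. A probe set below the filter read 44.1 and 47.2. The difference of Sesn1 was therefore not settled.

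The AMPK genes showed no common direction either. Stk11, which encodes the upstream kinase LKB1, read 338 in knockout and 378 in wild type. Of the catalytic subunit genes, Prkaa1 was dim, at 63.9 and 52.4 by its only probe set, a difference of 0.29 within the array error of 0.32. Prkaa2 read 414 and 382 by its brighter probe set and 382 and 413 by the other. Of the scaffold subunit genes, Prkab1 read 211 and 228, with its second probe set at 91.5 and 98.7. Prkab2 read 394 and 385, and its 3 probe sets lay between -0.02 and 0.04. Of the nucleotide-binding subunit genes, Prkag1 read 441 and 576, a difference of -0.39 against an array error of 0.23, the lowest of the network by brightest probe sets. Its second probe set, one that can match several transcripts, read 178 and 113 and differed by 0.65, so Prkag1 had no settled direction. Prkag2 read 635 and 548 by such a probe set as well, while its other probe sets read 246 against 245 and 156 against 160.

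Repeat readings of a gene often differed in sign. Several probe sets were measured for 28 genes, of which 11 (39.3%) had all of them on the same side of 0, against 42.5% of all genes with several. Higher in the knockout pool in this sense were Igf1, Foxo3, Tsc1 and Ddit4l, of which Foxo3 dropped out under quantile normalization. Lower were Akt1, Akt2, Jak2, Stat3, Ptpn11, Rptor and Prkab1, of which Akt2 dropped out under quantile normalization. Median centring moved Foxo3 to the lower genes and added Prkab2 to them, which gave 3 higher and 9 lower. Igf1, Ddit4l, Akt2 and Rptor each counted a dim probe set that passed the filter only through the pool where it was higher. Of the 7 genes at least 1.2-fold apart, Ddit4l and Tsc1 were backed by a second probe set, 3 had one that went the other way and 2 rested on 1 probe set.

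**Figure D3:**
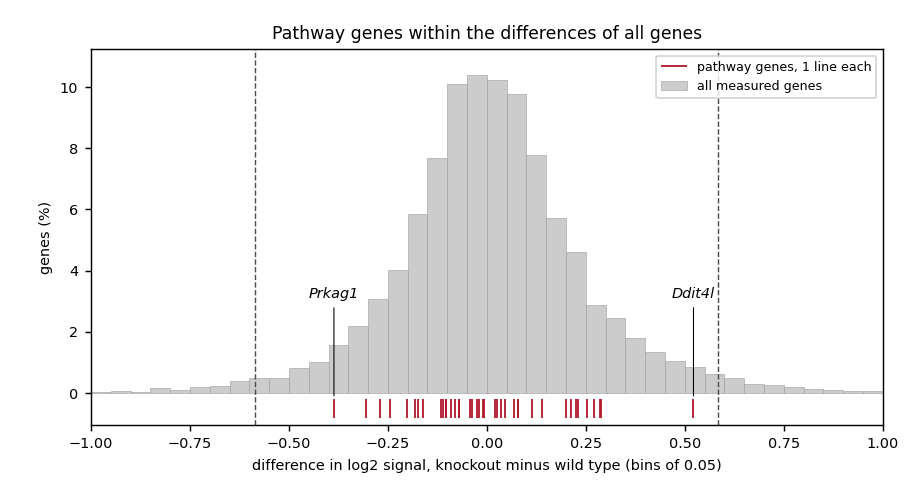
Differences in log2 signal, knockout minus wild type, of all 11312 measured genes as the percent in bins of 0.05 (grey bars, drawn from -1 to 1), with a red line for each of the 40 pathway genes and dashed lines at 1.5-fold. The pathway genes lie between Prkag1 at -0.39 and Ddit4l at 0.52, inside the dashed lines.

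Related genes that were not members were taken from 5 lists of 123 genes, 106 of them measured. Of these, 24 (22.6%) were at least 1.2-fold apart, 13 higher and 11 lower, close to the 21.9% of all measured genes. Past 1.5-fold, where 3.5% of all measured genes were, lay 7. Their median difference was 0.00. Of 26 measured insulin, IGF and PI3K genes, 15 were higher and 11 lower, with a median of 0.02, and 9 were higher and 17 lower after median centring. Irs4, an insulin receptor substrate gene with strong expression in the hypothalamus, read 237 in knockout and 336 in wild type, a difference of -0.51. Its dimmer probe set read 41.2 and 66.7, and passed the filter only through its wild-type signal. Irs4 was the substrate gene with the largest difference, since Irs1 and Irs2 were at -0.01 and -0.10. Inppl1, which encodes the lipid phosphatase SHIP2, was at -0.51, Igfbp6, an IGF-binding protein gene, at 0.44 and Pik3r4 at 0.26.

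In the leptin and JAK-STAT list 9 of 19 measured genes were higher and 9 lower, with a median of 0.00, or 6 and 13 after median centring. Leprot, whose gene shares its promoter region with Lepr and whose product limits leptin receptors at the cell surface, was higher by all 3 probe sets. They read 271 in knockout against 171 in wild type, 148 against 85.9 and 116 against 72.6, differences of 0.67, 0.79 and 0.67. All 3 are of the kind that can match several transcripts, so Leprot had no value once such probe sets were left out. Cntfr, which encodes a receptor subunit for ciliary neurotrophic factor, was lower, at 157 and 276 (-0.81) and at 68.1 and 82.3 (-0.27). Sh2b3 was at -0.57, and Cish, a STAT5 target and SOCS family gene, at 0.42.

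Among 30 measured genes of the mTOR complexes and nutrient sensing, 12 were higher and 18 lower, with a median of -0.04, or 9 and 21 after median centring. Tfeb, a lysosomal transcription factor that mTOR complex 1 restrains, was at 0.55, Rps6kb2, the second S6 kinase gene, at -0.53 and Rragd, a Rag GTPase gene, at 0.39. Deptor, an mTOR inhibitor gene, was at -0.48, while the mean of its 5 probe sets was -0.14. Of 15 measured AMPK genes, 8 were higher and 7 lower, with a median of 0.06, or 7 and 8 after median centring. Tbc1d1, a Rab regulator that AMPK phosphorylates, was at -0.61, Mlycd, which breaks down malonyl-CoA, at -0.60, and Fnip2, a folliculin partner, at 0.55. Strada, which activates LKB1, was at 0.35, though its probe sets averaged 0.00.

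Known FoxO targets went both ways. Of 16 measured, 9 were higher and 7 lower, with a median of 0.04, and median centring turned this to 7 higher and 9 lower. Past 1.5-fold were 3, a size reached by 3.5% of all measured genes. Pdk4 read 122 in knockout and 59.0 in wild type, Cdkn1b, a brake on the cell cycle, read 259 and 166, and Depp1 read 54.0 and 131. Bcl6 was higher by both probe sets, at 0.51 and 0.38. The highest difference of the list was that of Pdk4, at 1.04, and the lowest that of Depp1, at -1.27.

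**Figure D4:**
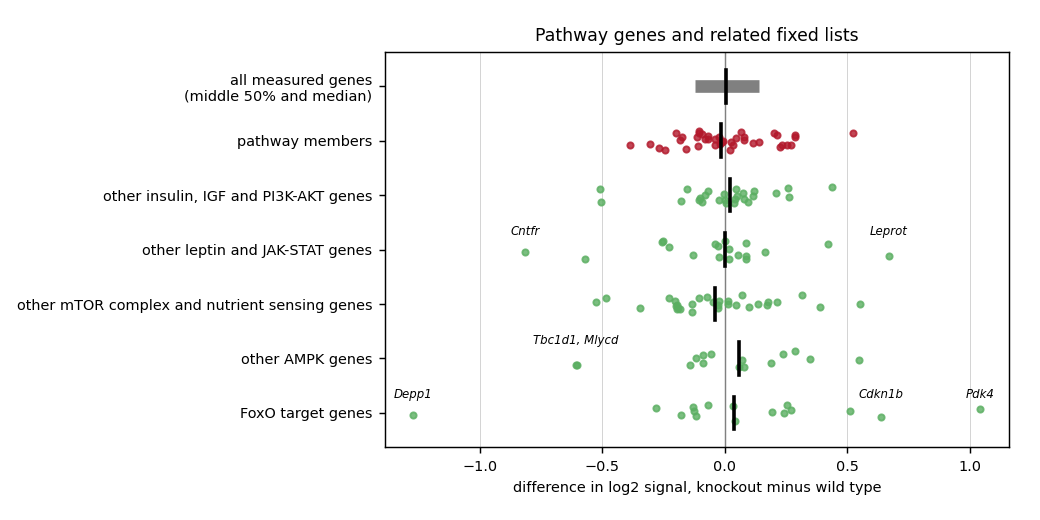
Difference in log2 signal, knockout minus wild type, for the 40 measured pathway genes and for each measured gene of the 5 related lists (points, spread vertically for legibility), with black bars at the medians and genes past 1.5-fold named; the grey bar spans the middle 50% of all 11312 measured genes. All list medians lie between -0.04 and 0.06, and the pathway genes spread less than the FoxO targets.

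Of the measured members, 3 lie on the chromosome of Crtc1, and in the order of protein-coding genes of GRCm38.p6 Pik3r2 is 22 genes from it, Irs2 396 and Insr 443. Their differences were -0.04, -0.10 and -0.20. As a check of the labels, Crtc1 itself read 85.1 in knockout and 631 in wild type. Hypothalamic markers were present in both pools, with 8 of 12 measured, no settled common direction (3 higher, 5 lower) and summed signals of 10211 and 10093, while Agrp, Crh, Nkx2-1 and Nr5a1 were not measured. Neuron, astrocyte and oligodendrocyte markers had medians of -0.02, 0.05 and -0.01, signs that were not the same under every scaling. Of 8 endothelial markers 4 were higher and 4 lower (median 0.03, or -0.03 after median centring). Tanycyte and ependymal markers were lower in 5 of 7 (median -0.13, summed signal 1319.1 in knockout and 1321.3 in wild type). Choroid plexus markers were lower in 8 of 9 (median -0.31, summed signal 8948.9 in knockout and 10106 in wild type). Ttr made up most of both sums, at 7745.0 in knockout and 8570.7 in wild type, a difference of -0.15. Microglia markers were higher in 7 of 10 (median 0.18, summed signal 5586.5 and 5009.8), none of those measured being at 0. The counts for tanycyte and ependymal, choroid plexus and microglia markers were the same under all 3 other scalings. Choroid plexus cells also carry receptors of insulin, IGF-1 and leptin, and microglia can make Igf1, and the part of either in the values of Insr, Igf1r and Igf1 was not tested.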

How the data were processed

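The authors deposited linear signal intensities, a value per probe set for each of 2 pooled arrays. Per the labels' protocols, 30 ug of total RNA went into the biotin-labelled cRNA. The sources used here do not say how probes were summarised or arrays scaled. In the values the mean without the lowest and highest 2% was 200.0 on both arrays. Genes were named from the platform annotation, updated by Entrez ID through RefSeq GRCm38.p6. The 64 control probe sets were left out. Signals were floored at the 30th percentile of each array (20.5 and 20.2) and log2-transformed. A probe set was measured where its mean log2 signal reached the median of all 45037, and a gene took its brightest measured probe set. The array error is the pooled SD between measured probe sets of a gene, in bins of mean signal. Each fold is the size of a log2 difference on the linear scale. With 1 array a group no test was run, and the precision is limited by the number of arrays. The members and lists were chosen with earlier results of these data known. Every measured member is named. From each related list the 4 genes of largest difference and any past 1.5-fold are named. There were 10 alternatives in scaling, floor, filter and gene value. Steps were tested on simulated data and run in Python 3.11.15 with pandas 2.3.3 and statsmodels 0.14.6.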

Additional observations from a re-analysis of the deposited data

How the results depend on the processing

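Of 578 gene values under 10 alternatives, 564 moved by less than the array error. This count overstates stability. Other floor percentiles and filters could hardly change a gene value, since a gene kept its brightest probe set, so those values were largely fixed in advance. No paired analysis was possible because each genotype was 1 pooled array. Among named genes at least 1.2-fold apart, averaging probe sets turned the sign of Stat5b (-0.023), Sesn1 (0.11), Prkag1 (0.13) and Strada (-0.0033), and leaving out probe sets ending in _s_at, _x_at or _a_at that of Sesn1 (0.16). Among genes under 1.2-fold, sign changes beyond the array error were those of Pdpk1 (-0.04) and Pik3r1 (0.07) with averaging and of Foxo1 (-0.11) without those suffixes. The member median, -0.01, was -0.074 with median centring, which moved the median of all genes to -0.06. The count of members at least 1.2-fold higher, 4, was 1 with median centring and 2 with loess, with a pseudocount of 16 or with a filter at the 70th percentile. In that order, 23.3%, 21.7%, 19.1% and 14.4% of all genes were at least 1.2-fold apart in either direction. The last filter left 36 members measured. The count past 1.5-fold, 0, was 1 of 43 with no filter (Socs3, higher) and 1 of 40 with averaged probe sets (Ddit4l, higher). Of all genes, 7.15% and 3.13% were past 1.5-fold in these settings. The count with probe sets of a single sign, 11 of 28, was 6 of 15 with the 70th percentile filter and 4 of 16 without the named suffixes. The median of the insulin, IGF and PI3K list was -0.038 with median centring and -0.052 with averaged probe sets, and that of the mTOR list was -0.10 with median centring. The sign was the same in every setting that measured the gene for 25 of 40 members, Ddit4l, Tsc1 and Ptpn11 among them. Ddit4l lay between 0.46 and 0.89 where it was measured, and it was not measured with the filter at the 70th percentile. Signals below the filter, some of them near the floor, limit what can be said of Lepr, Socs3 and Eif4ebp1.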

Other observations

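Few genes of the array had several probe sets that all read clearly higher in knockout RNA, by a rule chosen after the values were seen. Among 2099 genes read by 3 or more measured probe sets, 3 had each of them at least 0.5 higher in the knockout pool on the log2 scale, namely Ddit4l, Leprot and the immunoglobulin gene Ighm. None had each of them at least 0.5 lower. Since the limit of 0.5 was set with the values of Ddit4l and Leprot known, that they passed it supports nothing. Ddit4l also entered the 2099 genes only through a dim probe set that passed the filter by its knockout signal.

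The dimmest probe set of Ddit4l carried its largest difference. It read 90.1 in knockout and 30.4 in wild type, while the other probe sets of the gene differed by 0.52 and 0.58. Which transcripts of Ddit4l each probe set reads was not tested.

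Probe sets paired with a member and another gene entered no gene value. The one shared by Foxo3 and Gm38485 read 27.3 in knockout and 25.7 in wild type, and the one shared by Pik3r2 and Ifi30 read 5.1 and 3.6.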
